A study of Mus musculus with 4 samples.

Results

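Skeletal muscle transcripts in mouse skin were followed through 37 listed genes of the sarcomere and of fast muscle fibres. Each gene was read from the probe sets that the array's annotation assigns to it, taking its brightest probe set by mean log2 signal on the 4 arrays. In this way 36 of the 37 genes were measured, out of 18193 genes measured in all, and the level of Xirp2 is not analysed here. The genes fall into thick filament and M band (9 genes), thin filament (5), Z disc, titin and desmin (10), excitation and calcium handling (6) and energy supply (7).

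The sarcomere is the contractile unit of striated muscle, in which thick filaments of myosin pull on thin filaments of actin that are anchored at the Z disc. Calcium released from the sarcoplasmic reticulum acts on troponin and frees the thin filament for contraction, and creatine kinase, glycogen breakdown and glycolysis supply the ATP of fast fibres. Adult fast fibres are typed by their myosin heavy chain, Myh2 in type IIa, Myh1 in type IIx and Myh4 in type IIb. In mouse skin such fibres lie in the thin muscle sheet beneath the dermis and, in the ear, in the small auricular muscles, so their transcripts reach a skin sample with the deep tissue that is taken along.

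Skin RNA from 4 samples was hybridised to 3′ expression arrays, 2 labelled Control and 2 labelled MC903. All mice were wild-type BALB/c females that had been sensitised by applying ovalbumin (OVA), an egg-white protein, together with calcipotriol (MC903) to the ear skin, and had then received OVA by mouth. The Control mice were next treated on the skin with ethanol, the vehicle, and the MC903 mice with MC903, a vitamin D analogue used to induce dermatitis, before another oral OVA challenge. The vehicle group had thus also been exposed to MC903 during sensitisation. Age, the time of sampling and the body site of the skin taken are not given in the sources used here, nor is it stated that each sample came from its own animal, so p-values speak of the scatter among the samples at hand, possibly technical scatter only.

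Muscle transcripts were plainly present in all 4 skin samples, and on each array all 36 genes lay above the range of the TrpnX controls (1.55 to 24), probe sets for bacterial transcripts taken as background. They were lowest in MC903 replicate 1, while MC903 replicate 2 lay between the vehicle samples. On the log2(signal + 16) scale the mean over the 36 genes was 10.76 and 9.94 in vehicle and 8.83 and 10.35 in MC903. The groups thus overlapped. Relative to MC903 replicate 1 this mean was 3.80-fold and 2.15-fold higher in vehicle replicates 1 and 2 and 2.86-fold higher in MC903 replicate 2. The summed signal of the 36 genes was 116827 and 70373 in vehicle and 25787 and 87758 in MC903. Fewer muscle fibres in a sample and less RNA per fibre cannot be told apart in such bulk tissue.

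**Figure D1:**
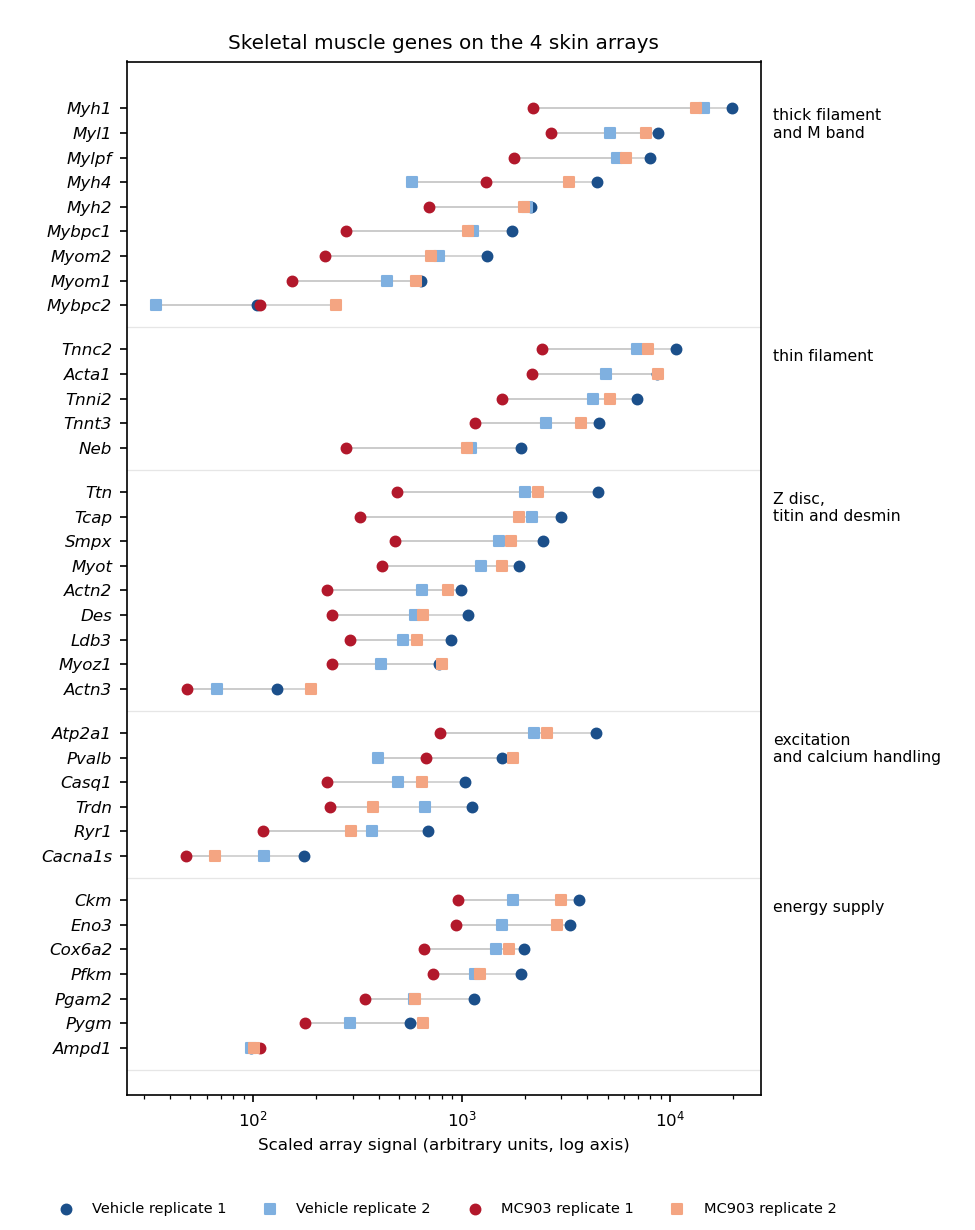
Scaled array signal (log axis) of each of the 36 measured muscle genes, grouped by role and ordered by mean signal, with 1 point per array: vehicle replicates in dark and light blue and MC903 replicates in red and orange, first replicate as a circle and second as a square. MC903 replicate 1 is the lowest point for 32 of the 36 genes, while MC903 replicate 2 lies between the vehicle arrays for 20.

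No muscle gene passed the test of MC903 against vehicle, and the MC903 arrays differed from each other (median of the 36 genes -1.65, replicate 1 minus replicate 2) by more than the groups did. With limma on log2(signal + 16), 0 of 36 genes had an adjusted p below 0.05, against a background of 0.0% of 18193 genes. Without adjustment 2 of 36 (Trdn and Cacna1s) had a p below 0.05, both lower with MC903, against 8.39% of all genes lower at that level. When limma's prior variance was allowed to follow the signal, again 0 of 36 passed (0.923% of all genes did) and 3, these 2 and Ryr1, lay below 0.05 unadjusted, against 9.62% of all genes lower. With 2 arrays per group the smallest two-sided p of an exact permutation test is 0.333. The median difference of the 36 genes was -0.83 (MC903 minus vehicle) beside -0.04 over all genes. Leaving out MC903 replicate 1 brought the median of the 36 to -0.10, and leaving out MC903 replicate 2 brought it to -1.59.

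Taken array by array, the median of the 36 genes was -1.59 in MC903 replicate 1 and -0.10 in MC903 replicate 2, each against the mean of the vehicle arrays, where all genes had medians of -0.05 and -0.03. MC903 replicate 1 gave the lowest signal of the 4 arrays for 32 of 36 genes (32.5% of all genes did so), and for 21 of 36 it lay at least 2-fold below each other array (1.24% of all genes). Between the MC903 arrays, 31 of 36 genes were at least 2-fold lower in replicate 1 (4.62% of all genes). MC903 replicate 2 lay within the range of the vehicle arrays for 20 of 36 genes (23.5% of all genes). The vehicle arrays differed as well, with 35 of 36 genes lower in replicate 2 than in replicate 1 (50.5% of all genes) by a median of -0.76, and 7 of 36 at least 2-fold lower (2.31% of all genes). On both MC903 arrays 9 of 36 genes were lower than on both vehicle arrays, beside 28.2% of all genes, and 2, Mybpc2 and Ampd1, were higher on both (21.6% of all genes). Without vehicle replicate 2 the 9 became 29 (40.3% of all genes), and without MC903 replicate 2 they became 32 (44.2% of all genes). Without vehicle replicate 1 the count was 9 (38.9% of all genes), and without MC903 replicate 1 it was 9 (40.7% of all genes).

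**Figure D2:**
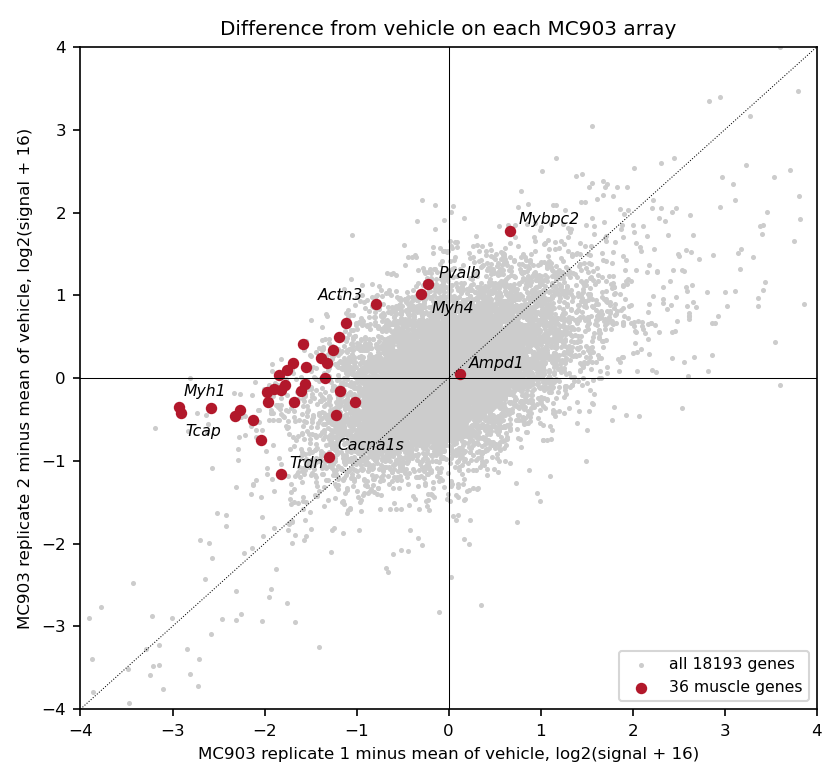
Difference of each gene from the mean of the vehicle arrays on the log2(signal + 16) scale, in MC903 replicate 1 (horizontal) and MC903 replicate 2 (vertical), for all 18193 genes in grey and the 36 muscle genes in red, with equal differences along the dotted line. Of the muscle genes, 34 lie left of 0 and 21 below 0, and 83 genes that are no muscle genes of this list fall outside the axes, which end at 4 either way.

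Among thick filament genes the type IIx and IIa myosins were several-fold lower in MC903 replicate 1 than elsewhere. Myh1, the type IIx heavy chain, stood at 19700.2 and 14511 in vehicle and 2206 and 13284 in MC903. MC903 replicate 1 lay 7.62-fold below the vehicle mean, and the group difference was -1.64 ± 0.90 (SE, n = 2 per group, limma adjusted p = 0.463). Its probe set carries a suffix for possible cross-hybridisation with related sequences, and a further Myh1 probe set gave 19188 and 14380.3 in vehicle and 1678 and 12027 in MC903, the same order of arrays. The remaining Myh1 probe set was dim, at 14.6 and 31.3 in vehicle and 2.9 and 14 in MC903. Only its vehicle replicate 2 value lay above the TrpnX range, and it too was lowest in MC903 replicate 1. Myh2, the type IIa heavy chain, stood at 2139 and 2056 in vehicle and 698 and 1994 in MC903. The vehicle arrays and MC903 replicate 2 were nearly equal for Myh2, with MC903 replicate 1 alone apart.

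Myh4, the type IIb heavy chain, followed another order of arrays. It stood at 4435 and 578 in vehicle and 1307 and 3272 in MC903, so vehicle replicate 2 and not MC903 replicate 1 was the lowest. Between the vehicle arrays it differed 7.49-fold, where Myh1 differed 1.36-fold and Myh2 1.04-fold. The other Myh4 probe set gave 191 and 43.4 in vehicle and 106 and 194 in MC903, again lowest in vehicle replicate 2. The MC903 minus vehicle difference of Myh4 was 0.36 ± 1.10 (limma adjusted p = 0.9) and its groups overlapped.

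The stretches before the starts of these 3 neighbouring genes are shown because the array pattern of Myh4 parted from that of Myh1 and Myh2. The 3 genes lie next to each other in the RefSeq gene table of GRCm38.p6, and the sequences are the 250 bases upstream of each RefSeq start in that build, read 5′ to 3′ on the + strand. Capitals mark matches to 5 motifs of muscle or core promoters: the MEF2 site and the CArG box bound by SRF, both matched by name to their usual consensus, the E-box of myogenic factors (spelled CAGCTG here), the M-CAT motif (spelled CATTCC, searched on either strand) and the TATA box (spelled TATAAA, searched on the strand of the gene). The E-box and the consensus forms of MEF2 and CArG read alike on both strands, and a TATA box match may overlap a MEF2 match. Myh2 spans chr11:67170777-67171026, Myh1 spans chr11:67199852-67200101 and Myh4 spans chr11:67237562-67237811.
Myh2: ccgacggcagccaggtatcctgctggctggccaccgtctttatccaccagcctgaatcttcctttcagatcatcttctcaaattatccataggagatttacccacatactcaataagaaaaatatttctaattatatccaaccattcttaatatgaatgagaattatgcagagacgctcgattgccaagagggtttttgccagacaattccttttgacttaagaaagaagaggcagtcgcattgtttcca
Myh1: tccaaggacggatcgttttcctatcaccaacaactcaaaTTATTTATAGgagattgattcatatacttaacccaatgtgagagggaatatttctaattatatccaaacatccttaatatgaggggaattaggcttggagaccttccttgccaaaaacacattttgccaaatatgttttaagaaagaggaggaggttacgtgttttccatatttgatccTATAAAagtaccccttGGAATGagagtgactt
Myh4: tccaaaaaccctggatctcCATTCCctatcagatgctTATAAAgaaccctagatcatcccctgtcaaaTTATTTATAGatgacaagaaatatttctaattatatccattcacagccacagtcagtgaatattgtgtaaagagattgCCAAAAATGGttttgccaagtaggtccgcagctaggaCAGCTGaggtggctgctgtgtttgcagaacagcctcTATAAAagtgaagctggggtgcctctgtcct
A MEF2 match and a TATA box match 32 bases (Myh1) and 31 bases (Myh4) before the start were found in both Myh1 and Myh4. Myh4 held a further TATA box match 213 bases before the start. CArG and E-box matches were found in Myh4 alone of the 3, M-CAT matches in Myh1 and Myh4, and none of the 5 motifs was found in the Myh2 window, which says only that these letters are not in it. Whether any of these matches bears on the array pattern of Myh4 was not tested.

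Both myosin light chains were lowest in MC903 replicate 1, with MC903 replicate 2 between the vehicle arrays. Myl1, the fast alkali light chain, stood at 8732 and 5132 in vehicle and 2676 and 7616 in MC903, with a group difference of -0.57 ± 0.59 (limma adjusted p = 0.687). Mylpf, the fast regulatory light chain, stood at 8036 and 5574 in vehicle and 1783 and 6129 in MC903. Here too a single array, MC903 replicate 1, was well below the other 3. Mybpc1, the slow-type myosin-binding protein C that fast fibres also carry, stood at 1742 and 1133 in vehicle and 279.7 and 1074 in MC903, both MC903 arrays being below both vehicle arrays, though MC903 replicate 2 only narrowly. Mybpc2, the fast-type myosin-binding protein C, gave 104 and 34 in vehicle and 107 and 250.3 in MC903. Both MC903 arrays were above both vehicle arrays for Mybpc2, MC903 replicate 1 just barely, and its difference of 1.22 ± 0.59 did not pass (limma adjusted p = 0.415). The M-band proteins myomesin 1 and 2 (Myom1 and Myom2) were 3.22-fold and 4.37-fold below the vehicle mean in MC903 replicate 1.

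MC903 replicate 1 was the lowest array for all 5 thin filament genes, and MC903 replicate 2 lay between the vehicle arrays for 3 of them. Tnnc2, Tnni2 and Tnnt3 encode the calcium-binding, inhibitory and tropomyosin-binding subunits of fast troponin. Tnnc2 stood at 10660.0 and 6940.4 in vehicle and 2428 and 7776 in MC903, and MC903 replicate 1 was 3.53-fold below the vehicle mean. The same fold was 3.44 for Tnni2 and 2.92 for Tnnt3. Acta1, skeletal muscle actin, stood at 8602 and 4941 in vehicle and 2171 and 8700.0 in MC903. MC903 replicate 2 slightly exceeded both vehicle arrays for Acta1, and the group difference of -0.58 ± 0.75 (limma adjusted p = 0.745) turned to 0.42 without MC903 replicate 1. Neb encodes nebulin, the giant protein that runs along the thin filament, and stood at 1920.2 and 1104 in vehicle and 278 and 1057 in MC903, which puts MC903 replicate 2 just under vehicle replicate 2. All 5 thin filament genes were at least 2-fold lower in MC903 replicate 1 than in each other array, and the median of the group was -1.78 in MC903 replicate 1 and -0.08 in MC903 replicate 2.

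The upstream stretches of Acta1 and of Ckm, the gene of muscle creatine kinase, are shown as those of bright genes whose lowest array was MC903 replicate 1. They are again 250 bases of GRCm38.p6 before the RefSeq start, 5′ to 3′ on the strand of the gene, with the same capitals, at chr8:123894776-123895025 on the - strand and chr7:19410844-19411093 on the + strand.
Acta1: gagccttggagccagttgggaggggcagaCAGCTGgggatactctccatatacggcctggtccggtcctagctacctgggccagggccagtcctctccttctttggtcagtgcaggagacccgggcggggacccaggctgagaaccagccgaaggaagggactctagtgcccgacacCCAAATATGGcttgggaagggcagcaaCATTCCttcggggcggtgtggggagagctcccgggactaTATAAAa
Ckm: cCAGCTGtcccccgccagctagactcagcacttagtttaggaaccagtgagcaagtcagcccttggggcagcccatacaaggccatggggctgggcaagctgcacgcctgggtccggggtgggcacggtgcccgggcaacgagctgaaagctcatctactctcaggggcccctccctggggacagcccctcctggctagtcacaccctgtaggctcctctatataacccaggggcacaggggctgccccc
The Acta1 window held matches to the CArG box, E-box, M-CAT motif and TATA box, and the Ckm window an E-box match 249 bases before the start. The TATA box match of Acta1 began only 7 bases before the start, nearer to it than those of Myh1 and Myh4. RefSeq promoters were at hand for 26 of the 37 listed genes, Xirp2 included, with 31 starts in all. Of these starts 38.7% held an E-box, against 13% of 32851 starts of all genes, 22.6% an M-CAT motif (12.6% of all), 19.4% a MEF2 match (2.92% of all), 16.1% a CArG match (1.47% of all) and 9.68% a TATA box (7.59% of all). These matches are a description of letters and not of binding.

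Z disc, titin and desmin genes were lowest in MC903 replicate 1 for all 9 measured. Ttn, the gene of titin, which spans from Z disc to M band, stood at 4487 and 2021 in vehicle and 489 and 2332 in MC903. Its MC903 replicate 1 signal was 6-fold below the vehicle mean (-2.58), yet its vehicle arrays themselves differed 2.21-fold. The other Ttn probe sets gave smaller differences there, from -1.96 to -0.37. The dimmest of them was lowest in MC903 replicate 2. Tcap, the gene of telethonin, which caps titin at the Z disc, stood at 2995 and 2160.2 in vehicle and 325 and 1887 in MC903. Both MC903 arrays lay below both vehicle arrays for Tcap, with differences from the vehicle mean of -2.91 in replicate 1 and -0.43 in replicate 2, and the group difference was -1.67 ± 0.87 (limma adjusted p = 0.446). The Z disc genes Actn2, Ldb3, Myoz1 and Myot, the intermediate filament gene Des and the small muscle protein gene Smpx were 2.26-fold to 3.93-fold below the vehicle mean in MC903 replicate 1. In MC903 replicate 2 the same 6 genes differed from the vehicle mean by between -0.29 and 0.49. Actn3, the alpha-actinin of the fastest fibres, was dimmer, at 130.4 and 67.2 in vehicle and 48 and 189 in MC903, and MC903 replicates 1 and 2 were its lowest and its highest arrays.

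Of 6 genes of excitation and calcium handling, 3 were lower on both MC903 arrays than on both vehicle arrays, beside 28.2% of all genes. Trdn, the gene of triadin, which links the calcium release channel to calsequestrin, stood at 1121 and 668 in vehicle and 234 and 377 in MC903. Both MC903 arrays were below both vehicle arrays, and the difference was -1.49 ± 0.37 (limma adjusted p = 0.234, or adjusted p = 0.124 with the prior that follows the signal). The brightest other Trdn probe set gave 763 and 514 in vehicle and 191 and 481 in MC903, with MC903 replicate 2 just under vehicle replicate 2. Over all 5 other Trdn probe sets, 3 of them not above the TrpnX range on every array, both MC903 arrays were again below both vehicle arrays. Cacna1s, the voltage sensor of the T tubule, stood at 176 and 112 in vehicle and 47.5 and 65.3 in MC903, without overlap of the groups, and differed by -1.13 ± 0.27 (limma adjusted p = 0.233). Ryr1, the calcium release channel, stood at 691 and 370.2 in vehicle and 111 and 294 in MC903, likewise without overlap, and differed by -1.40 ± 0.55 (limma adjusted p = 0.346). The other Ryr1 probe set was dimmer, at 84.7 and 73.7 in vehicle and 3.39 and 76.1 in MC903. On that probe set MC903 replicate 2 lay between the vehicle arrays, so the groups overlapped. None of these 3 genes passed the threshold. In the same group, Atp2a1, the calcium pump that refills the reticulum in fast fibres, stood at 4398 and 2229.7 in vehicle and 790.3 and 2557 in MC903. MC903 replicate 1 was lowest and MC903 replicate 2 lay between the vehicle arrays, as for Casq1, the calcium store protein calsequestrin (3.04-fold lower in MC903 replicate 1).

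Pvalb, the gene of parvalbumin, which buffers calcium in the fastest fibres, resembled Myh4. It stood at 1557 and 395 in vehicle and 675 and 1753 in MC903, lowest in vehicle replicate 2 and highest in MC903 replicate 2. Between the vehicle arrays Pvalb differed 3.82-fold, and its group difference was 0.46 ± 0.82 (limma adjusted p = 0.818).

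Energy supply genes were the group nearest to vehicle in MC903 replicate 1, with a median of -1.22 against 0.04 in MC903 replicate 2. Ckm stood at 3655 and 1762 in vehicle and 959.9 and 3001 in MC903, the MC903 arrays lying at both ends of a range that took in vehicle replicate 2. Eno3, the muscle enolase of glycolysis, stood at 3302 and 1563 in vehicle and 943 and 2868 in MC903. Both genes differed about 2-fold between the vehicle arrays (2.07-fold and 2.1-fold), and without MC903 replicate 1 their group differences turned to 0.24 and 0.33. Cox6a2, the muscle subunit of cytochrome c oxidase, stood at 1983 and 1455 in vehicle and 662 and 1694 in MC903, and Pgam2, the muscle phosphoglycerate mutase, at 1146 and 592 in vehicle and 344 and 598 in MC903. Neither group difference passed (-0.67 ± 0.50, limma adjusted p = 0.57, and -0.84 ± 0.44, limma adjusted p = 0.446). Pygm (muscle glycogen phosphorylase) and Pfkm (muscle phosphofructokinase) were 2.17-fold and 2.03-fold below the vehicle mean in MC903 replicate 1. Ampd1, the muscle AMP deaminase, barely varied at all, with 97.4 and 97.5 in vehicle and 108 and 101 in MC903, on the 1 probe set that carries its name.

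To see where single genes parted from the shared pattern, each gene's level on an array was taken from its own mean over the arrays, and the median of the 36 genes on that array was subtracted. This relative level removes what the 36 genes share and shows unequal differences only. It spanned less than 1 log2 unit over the 4 arrays in 26 of the 36 genes, more than 1 in 10 and more than 2 in 4, Mybpc2, Myh4, Ampd1 and Pvalb. In vehicle replicates 1 and 2 and MC903 replicates 1 and 2, in that order, the relative level of Myh4 was 0.49, -1.73, 0.70 and 0.46. For Pvalb it was -0.05, -1.29, 0.73 and 0.53, and for Mybpc2 -0.77, -1.34, 1.23 and 0.79. These 3 were relatively low in vehicle replicate 2 and relatively high on both MC903 arrays. Ampd1 did otherwise, with -0.83, -0.14, 1.26 and -0.38, relatively high in MC903 replicate 1 alone. Actn3 (-0.40, -0.53, 0.36 and 0.49) was also relatively low in both vehicle arrays and high on both MC903 arrays. Myh1 and Tcap ran the other way, with 0.25, 0.50, -0.93 and 0.10 for Myh1 and 0.28, 0.50, -0.90 and 0.03 for Tcap, relatively low in MC903 replicate 1. These genes were picked after their values were seen, the measure carries no test, and the levels of Ampd1, Mybpc2 and Actn3 are dim enough for the added constant to matter. Under the other scalings, constants and probe set choices the span stayed between 2.21 and 2.51 for Myh4, 1.85 and 2.10 for Pvalb, and 1.97 and 2.94 for Mybpc2, but fell to 0.29 for Ttn and 0.60 for Trdn when probe sets were averaged.

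**Figure D3:**
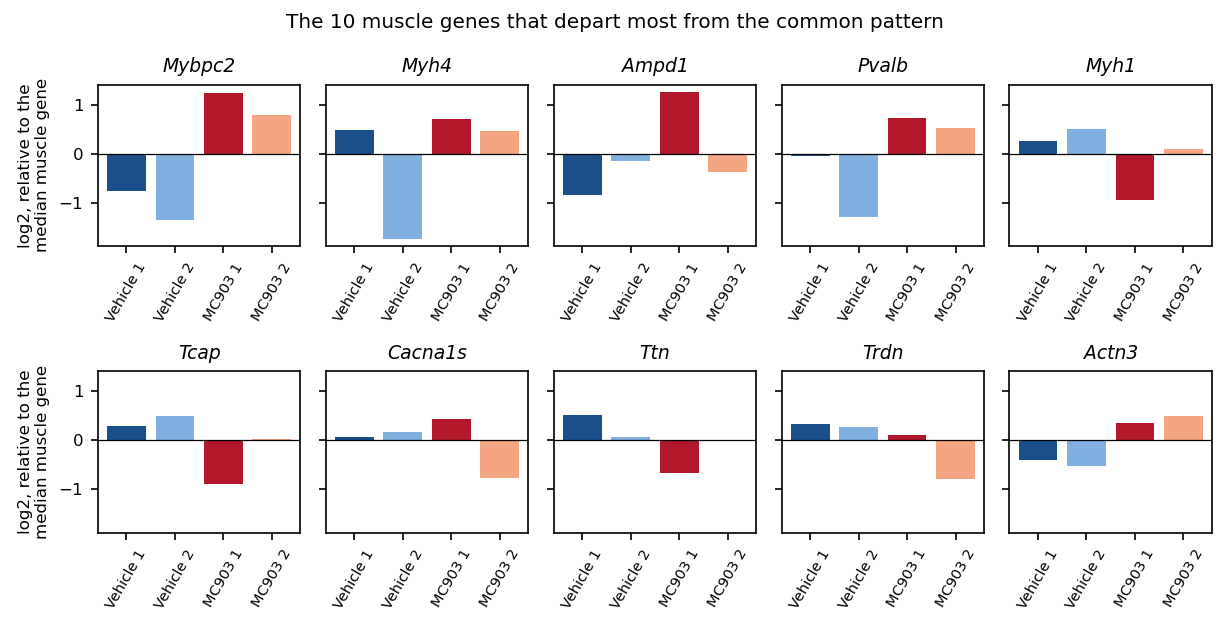
Relative level (log2, after subtracting the gene's own mean and the array's median over the 36 muscle genes) of the 10 muscle genes with the widest span over the arrays, with 1 bar per array. Mybpc2, Myh4 and Pvalb are lowest in vehicle replicate 2 and above 0 on both MC903 arrays, whereas Myh1, Tcap and Ttn are lowest in MC903 replicate 1.

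Further probe sets of the same genes were mostly lowest in MC903 replicate 1 too, but the place of MC903 replicate 2 among the arrays varied. Of the 36 genes, 13 had more than 1 probe set, with 27 probe sets besides those used. MC903 replicate 1 was the lowest array for 23 of the 27, and for 16 of the 18 that lay above the TrpnX range on every array. MC903 replicate 2 lay within the vehicle range for 11 of the 27 and for 9 of the 18 (23.5% of all genes). Both MC903 arrays were below both vehicle arrays for 14 of the 27 and for 8 of the 18 (28.2% of all genes). The shares of all genes count 1 probe set per gene. The exceptions to the low MC903 replicate 1 among the 18 were a dim Ckm probe set (137 and 100.1 in vehicle and 109 and 134 in MC903) and the other Myh4 probe set given above.

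Muscle genes outside the list showed the low level of MC903 replicate 1 as well. Of 40 other muscle fibre genes, such as those of tropomyosin, myoglobin and muscle ubiquitin ligases, 34 were lowest in MC903 replicate 1 (32.5% of all genes). On that array 16 lay at least 2-fold below each other array (1.24% of all genes). The medians of the 40 genes were -1.23 and -0.17 in MC903 replicates 1 and 2. Mb, the gene of the oxygen store myoglobin, stood at 9353 and 6614 in vehicle and 1261 and 5012 in MC903. It differed by -1.64 ± 0.71 (limma adjusted p = 0.377). Mss51, a gene known from skeletal muscle, was instead equally low on both MC903 arrays, with 87.2 and 94.2 in vehicle and 16 and 15.4 in MC903, the MC903 values being within the TrpnX range. Its limma adjusted p was 0.112. Of this list 0 of the 40 genes passed, with either prior, while 2 higher and 2 lower had an unadjusted p below 0.05 with the constant prior (6.82% and 8.39% of all genes), and 2 higher and 8 lower with the prior that follows the signal (7.67% and 9.62% of all genes).

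Slow fibre genes were low on both MC903 arrays in part. Of 13 genes, 7 were lower on both MC903 than on both vehicle arrays and 2 higher on both, beside 28.2% and 21.6% of all genes, and the medians were -0.95 and -0.32. The 2 higher genes, Tpm3 and Atp2a2, were the brightest of the list. How much of their signal came from muscle fibres cannot be told from bulk skin. Tpm3 stood at 7152 and 6268 in vehicle and 9825 and 8534 in MC903, and Atp2a2 at 5316 and 5279 in vehicle and 7744 and 7616 in MC903. Myh7, the slow myosin heavy chain, stood at 186 and 72.6 in vehicle and 103 and 131 in MC903, within the vehicle range on both MC903 arrays. Tnni1, slow troponin I, stood at 717 and 392 in vehicle and 67.8 and 125 in MC903, and Tnnt1, slow troponin T, at 1824 and 1446 in vehicle and 260.5 and 754 in MC903. Their differences of -2.33 ± 0.41 and -1.83 ± 0.54 did not pass (limma adjusted p = 0.188 and 0.27), and 0 of the 13 genes passed with either prior. Unadjusted, 5 were lower and 1 higher at a p below 0.05 with the constant prior, against 8.39% and 6.82% of all genes. For Tnni1 and Tnnt1 MC903 replicate 2 also lay below both vehicle arrays, unlike in their fast counterparts Tnni2 and Tnnt3. Whether slow and fast genes differ in their response was not tested.

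Genes of the myogenic lineage and of the nerve-muscle contact had medians nearer 0 than the fast muscle genes in MC903 replicate 1. Myod1, the master factor of the lineage, stood at 35.3 and 55.5 in vehicle and 2.87 and 8.01 in MC903, the MC903 values being within the TrpnX range, and differed by -1.51 ± 0.25 (limma adjusted p = 0.178). Over 14 myogenic and satellite cell genes the medians were -0.43 and -0.10 in MC903 replicates 1 and 2, over 10 genes of embryonic and regenerating fibres -0.62 and -0.26, and over 11 genes of the neuromuscular junction -0.56 and -0.35. Myh3, the embryonic myosin of the same gene cluster as Myh1, stood at 1379 and 971 in vehicle and 160.5 and 857 in MC903, the same order of arrays as Myh1. Whether the Myh3 probe set also takes up the far brighter Myh1 transcript was not tested. Chrna1, the muscle acetylcholine receptor subunit, was low on both MC903 arrays, with 258 and 149 in vehicle and 73.9 and 44.8 in MC903, and differed by -1.53 ± 0.35 (limma adjusted p = 0.222). These 3 lists had 0 genes that passed with either prior, while with the constant prior 2 of the 14, 2 of the 10 and 3 of the 11 were lower at an unadjusted p below 0.05 (8.39% of all genes). Of all genes on the lists used, 6 stand on more than 1.

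Smooth and heart muscle genes had medians nearer 0 in MC903 replicate 1. Smooth muscle genes of vessels and hair muscles had medians of -0.35 and -0.18 over 14 genes, with 1 of them, Synpo2, at least 2-fold below each other array in MC903 replicate 1. Acta2, smooth muscle actin, stood at 2147 and 2289 in vehicle and 2065 and 1881 in MC903. Tagln, the smooth muscle protein transgelin, stood at 847 and 1032 in vehicle and 378 and 475 in MC903, lower on both MC903 arrays (difference -1.11 ± 0.21, limma adjusted p = 0.191). Of the 14 smooth muscle genes 6 were lower on both MC903 arrays, beside 28.2% of all genes. Synpo2 (synaptopodin 2), which skeletal muscle also expresses, stood at 794 and 501 in vehicle and 124 and 386 in MC903. Of 8 heart genes the median was -0.21 and 0.03, and the only one at least 2-fold lower in MC903 replicate 1 than elsewhere was Actn2, which is also a gene of the fast muscle list. Within the TrpnX range on every array lay 2 of the 8 heart genes and 2 of the 14 smooth muscle genes. Myh6, the cardiac heavy chain, was one of these heart genes (at most 16.3). Genes so near background can show little difference on this scale, so the heart medians say little about heart genes. Non-muscle counterparts of the muscle enzymes and filaments, such as Pgam1 (3679 and 3618 in vehicle and 5931 and 5721 in MC903) and Actb (27145 and 25389.9 in vehicle and 32252 and 28470.0 in MC903), had medians of 0.27 and 0.20 over 16 genes, above those of the muscle genes.

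Over the whole array, 226 genes (1.24% of all genes) lay at least 2-fold below each other array in MC903 replicate 1. Of the 226 genes, 42 (18.6%) stood on a list of skeletal muscle genes, which is 34.7% of the 121 genes on those lists. The 36 fast muscle and sarcomere genes supplied 21 of the 226 (9.29%), or 58.3% of the 36. At 4-fold, 12 of the 18193 genes remained, each read from its brightest probe set. From the muscle lists came 6 of them (Myh1, Ttn, Tcap, Myh3, Lmod2 and Trim54). Lmod2 and Trim54 encode a leiomodin of striated muscle and a muscle ubiquitin ligase, and they are named because so few genes were counted.

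Among markers of other tissues that could come with deep skin, cartilage genes shared the order of arrays with the muscle genes in summed signal. White and brown adipocyte genes did not. Cartilage genes were lower in vehicle replicate 2 than in replicate 1 for 13 of 15 genes, by a median of -0.80, close to the -0.76 of the muscle genes, but against the vehicle mean the MC903 arrays had cartilage medians of -0.31 and 0.19. Chad, the cartilage matrix protein chondroadherin, stood at 4059 and 2858 in vehicle and 1915 and 3824 in MC903. Of the 15 cartilage genes 8 were lowest in MC903 replicate 1 (32.5% of all genes). The summed cartilage signal was 13780.4 and 8632 in vehicle and 7954 and 11952 in MC903, and 1 of the 15 cartilage genes lay within the TrpnX range on every array. White adipocyte genes had medians of 0.34 and 0.97 and summed signals of 18179 and 16697 in vehicle and 21974 and 32217 in MC903, none of the 10 being within that range throughout. Retn, the adipocyte hormone resistin, stood at 487 and 404 in vehicle and 574 and 1371 in MC903, so its highest array was MC903 replicate 2. The brown adipocyte list had medians of -0.58 and 0.19 over 7 genes and summed signals of 15596 and 17262 in vehicle and 11816 and 24094 in MC903. Cidea (5618 and 7368 in vehicle and 4195 and 7331 in MC903) and Elovl3 made up most of each of these sums. Ucp1, the defining uncoupling protein, was dim, at 30.4 and 34.6 in vehicle and 4.58 and 5.58 in MC903, within the TrpnX range in MC903. The sums are thus not a measure of brown fat. Dio2, the deiodinase that activates thyroid hormone, stood at 340.1 and 234 in vehicle and 942 and 1533 in MC903, the opposite direction, and Elovl3, a fatty acid elongase, at 5582 and 6125 in vehicle and 4293 and 10214 in MC903.

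Nerve and Schwann cell genes had medians of -0.37 and -0.35 over 9 genes, endothelial genes 0.13 and 0.16 over 10, dermal fibroblast genes -0.28 and -0.31 over 11 and keratinocyte genes 0.02 and 0.06 over 12. In none of these 4 lists was a gene at least 2-fold below each other array in MC903 replicate 1. Leukocyte genes were higher in MC903 replicate 1 than in replicate 2, with medians of 0.97 and 0.51 over 12 genes. Their summed signal was 9248 and 9938 in vehicle and 81767 and 21472 in MC903. S100a8 and S100a9 made up most of this sum in MC903 replicate 1 only. S100a8 stood at 422 and 732 in vehicle and 36943 and 5891 in MC903, and S100a9 at 253 and 466 in vehicle and 26481.5 and 4081 in MC903. The array with the least muscle signal was thus the one with the highest summed signal of the leukocyte list. Hair shaft and root sheath genes were low on both MC903 arrays (-3.18 and -3.33 over 20 genes), with summed signals of 56068 and 95148 in vehicle and 12197 and 10636 in MC903. With the prior that follows the signal limma called 15 of those 20 genes lower, against 0 of the 36 muscle genes and 0.385% of all genes lower, and with the constant prior 0 (17 at an unadjusted p below 0.05). The part of leukocytes, fat, cartilage or the depth of the tissue taken in the muscle values was not tested.

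**Figure D4:**
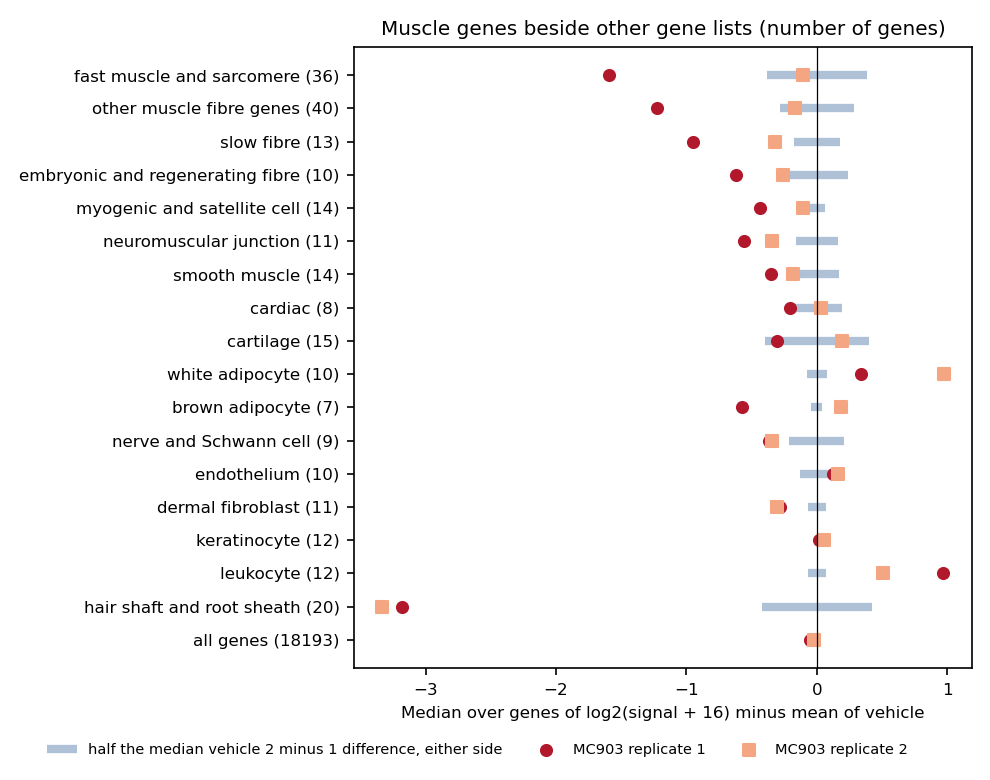
Median over the genes of each list of the difference from the mean of the vehicle arrays on the log2(signal + 16) scale, as a circle for MC903 replicate 1 and a square for MC903 replicate 2, with a bar reaching to either side by 0.5 times the median difference between the vehicle arrays. The fast muscle and sarcomere genes have -1.59 in MC903 replicate 1 and -0.10 in MC903 replicate 2, whereas the hair genes have -3.18 and -3.33.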

How the data were processed

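The deposited table holds linear array intensity values for 45101 probe sets on 4 arrays. Per the labels' protocols, 200 ng of total RNA was labelled with biotin. How probe signals were summarised is not stated there. A test of the values showed that the mean without the highest and lowest 2%, averaged over the 4 arrays, was 500, with unequal quantiles. Median signals ran from 90.2 to 109.2. Having 2 arrays per group limits the precision.

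Probe sets with 1 symbol (34945, 34741 of them matched by Entrez ID) were named from the platform annotation, with symbols of the GRCm38.p6 RefSeq table. A further 932 had several symbols, 9160 were unnamed and 64 were controls. Each gene took the probe set with the highest mean log2(signal + 16). The group comparison used limma 3.58.1 under R 4.3.3 (functions lmFit, eBayes, 2 residual and 2.32 prior degrees of freedom, Benjamini-Hochberg over 18193 genes, threshold 0.05), tested on simulated data. Named in full were, per role, the 2 genes brightest and the 2 most different, plus genes chosen after their values were seen (Myh2, Myh4, Mylpf, Mybpc2, Actn3, Cacna1s, Ampd1, and those given by fold only). The genes and lists were chosen with earlier results of these data known. Alternatives were the prior, the scaling, the added constant, filters on dim genes, the probe set rule, a replicate block and each array left out.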

Additional observations from a re-analysis of the deposited data

How the results depend on the processing

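None of the 36 muscle genes passed under any of the 15 other settings, the smallest adjusted p being 0.0967 (Trdn, limma without the dimmest 50% of genes, which left 32 of the 36). The count over all genes, 0 in limma with a constant prior, was 168 with a prior that follows the signal, 3 with quantile normalization, 3 with centring on array medians, 70 with an added constant of 64, 42 and 177 without the dimmest 25% and 50%, 12 with the mean of probe sets and, chosen after seeing the data, 5 with the probe set of the highest mean linear signal. It was 0 with each array left out. Nothing in the labels ties same-numbered samples together (correlation of their deviations -0.06 across 18193 genes), and limma with a replicate block called 0 genes and 0 muscle genes. With single arrays left out, the median difference of the 36 genes ran from -1.59 to -0.10, that of MC903 replicate 1 from -1.97 to -1.23, that of MC903 replicate 2 from -0.43 to 0.21, and the genes lower on both MC903 arrays numbered 9 to 32. Under the other scalings, constants, filters and probe set choices these 3 medians stayed within -0.86 to -0.75, -1.68 to -1.49 and -0.14 to -0.00266, and the count within 6 to 10. No gene's difference changed sign there, but 13 did with an array left out: Myh4 (-1.09 to 1.81), Pvalb (-0.51 to 1.43), Actn3 (-0.79 to 0.89), Pygm (-1.12 to 0.66), Myoz1 (-1.19 to 0.49), Acta1 (-1.58 to 0.42), Eno3 (-1.26 to 0.33), Ckm (-1.39 to 0.24), Myl1 (-1.32 to 0.19), Myom1 (-1.69 to 0.18), Tnnt3 (-1.55 to 0.13), Actn2 (-1.76 to 0.10) and Myot (-1.84 to 0.037). The cause was not tested. A lone array left in a group was taken to vary as the other group does.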
